A study of Mus musculus with 19 samples.

Results

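The genes described here are 34 genes of the peroxisome: 13 peroxins, which build and divide the organelle, and 21 genes for its lipid transporters, its oxidation enzymes, catalase and the enzymes that start ether lipid synthesis. They were taken by gene symbol from a list drawn up for this purpose, and all 34 were found among the 19505 genes measured, each by 1 probe set. On every array 32 of them were detected above background, and no filter on low values was applied. To ask how the loss of methylmalonyl-CoA mutase alters the liver, the study compared RNA of 9 control and 10 mutant mice, each on its own Mouse Clariom S array. Controls (*Mmut*-ki/wt) carry a wild-type allele and a knock-in allele with the missense change MMUT-p.Met700Lys, while mutants (*Mmut*-ko/ki) carry a knock-out allele beside the same knock-in allele. The controls therefore also hold 1 altered copy of the gene. All mice were C57BL/6N males aged 20 weeks by their labels, untreated and fed *ad libitum* on a high-protein diet, and neither allele is restricted to the liver.

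Peroxisomes shorten the fatty acids that mitochondria handle poorly, such as very long, branched and dicarboxylic chains, and the first oxidase of their β-oxidation passes electrons to oxygen and makes hydrogen peroxide. Peroxins carry folded enzymes across the peroxisomal membrane, insert membrane proteins and divide the organelle. In rodent liver, ligands of the nuclear receptor PPARα make peroxisomes multiply and raise the messenger RNA of many of their β-oxidation enzymes, which is how the receptor got its name.

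The deposited values are log2 signals, and a difference of 1 is a 2-fold change. Rose and fell mean an adjusted p under 0.05 in limma's test of mutant against control, with Benjamini-Hochberg adjustment over all 19505 genes. *Mmut* itself spanned 12.80 to 13.53 in controls and 11.18 to 11.90 in mutants, a log2 change of -1.66 (SE 0.12, adjusted p = 5.3e-10), with no overlap between the genotypes. Array medians lay between 5.14 and 5.25. All 8 hepatocyte markers were detected on every array and 0 of them changed, at a mean signal between 19.3 and 19.4 near the top of the scale. Of these, *Alb*, *Apoa1*, *Ttr* and *Serpina1a* had control medians between 19.90 and 19.91, where a rise would not have been measurable. Of the other cell types, 4 of 7 Kupffer cell and macrophage markers rose, and the mean log2 signal of that list spanned 8.19 to 9.08 in controls and 8.65 to 10.1 in mutants. The single red blood cell marker measured, *Alas2*, fell from between 10.1 and 11.1 in controls to between 7.80 and 9.75 in mutants (log2 change -1.89). Of the rest, 1 of 6 endothelial markers rose, 1 of 5 stellate cell markers and 1 of 4 cholangiocyte markers fell, and 0 of 5 adipocyte and 0 of 3 T and B cell markers changed. *Krt19*, *Adipoq* and *Lep* were detected on no array. The part of these cell types in the results below was not tested, and in whole liver fewer cells of a type and less RNA per cell cannot be told apart.

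Several enzymes of β-oxidation, the transporter *Abcd2* and the division factor *Pex11a* rose in mutant liver, most peroxins and all ether lipid genes did not pass the test, and 5 genes fell. Of the 34 genes, 10 rose, 5 fell and 19 did not pass. Among all genes 10.1% changed, 4.73% rose and 5.33% fell, against 29.4% that rose and 14.7% that fell among the peroxisomal genes. The median log2 change of the 34 genes was -0.03, beside 0.00 for all genes. Outside the peroxins, 9 of 21 genes rose and 2 fell, with a median of 0.15. Of the 13 peroxins, 1 rose and 3 fell, with a median of -0.13. In 3 genes, *Pex11a*, *Abcd2* and *Acaa1b*, all 10 mutants lay above every control, which was so for 0.933% of all genes. In 0 of the 34 did all mutants lie below every control, against 0.549% of all genes. The rises were the steadier part: with any 1 array left out, 8 to 10 genes rose. The count of falls was 2 when control replicate 4, control replicate 6 or mutant replicate 4 was left out, 3 when control replicate 2, control replicate 5 or mutant replicate 9 was, and 4 to 7 for each other array.

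**Figure D1:**
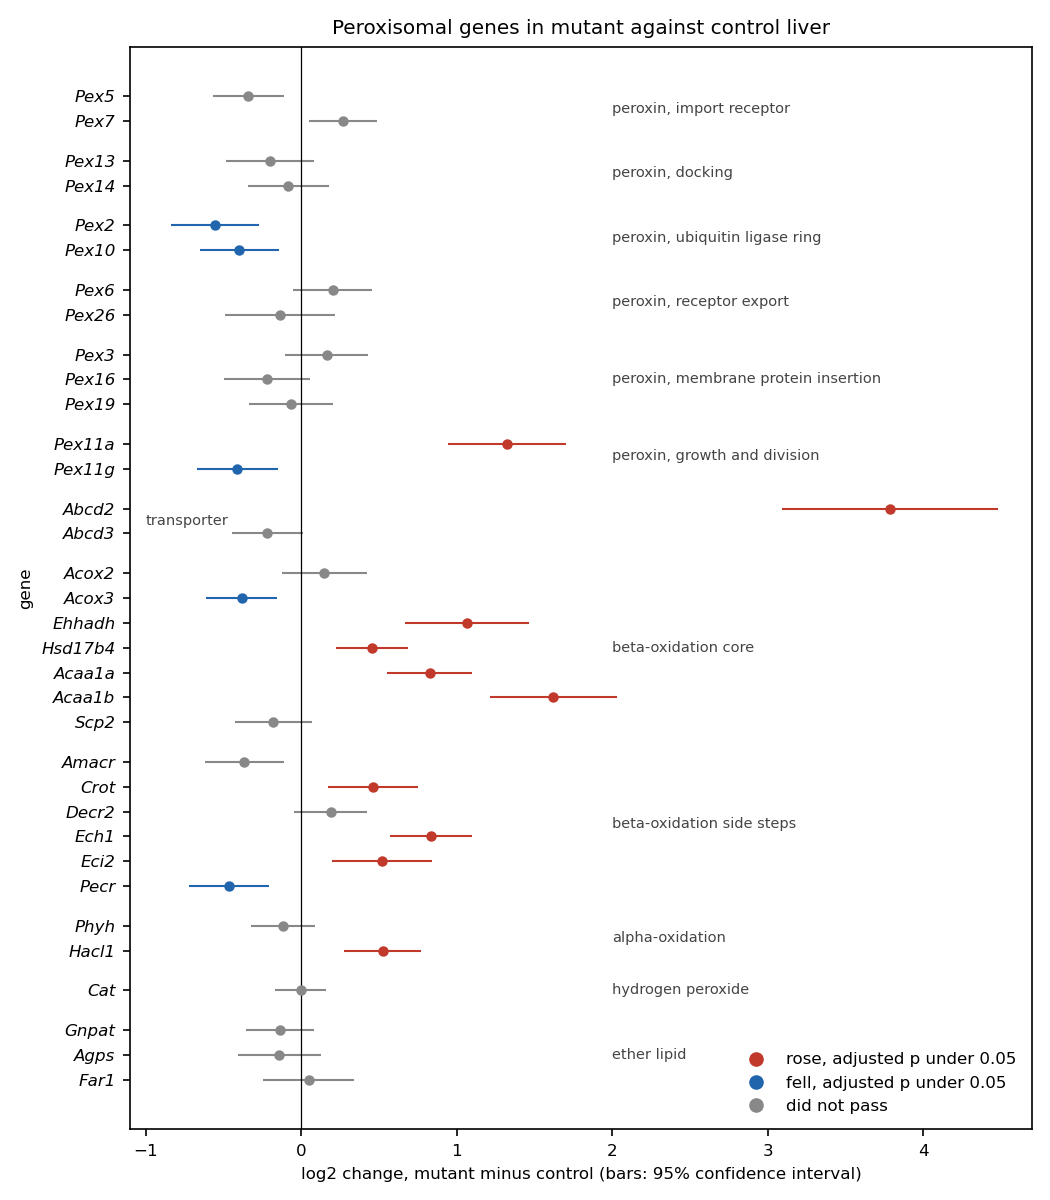
Log2 change between the genotypes (x axis, mutant minus control, 0 marked by the line) for each of the 34 genes, grouped by role on the y axis. Points are limma estimates from 9 controls and 10 mutants and bars are 95% confidence intervals. *Abcd2* lies farthest to the right at 3.79, and the peroxins other than *Pex11a* lie between -0.55 and 0.27.

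*Pex11a* was the peroxin that rose. It encodes a membrane protein that elongates peroxisomes before they divide. Its lowest, median and highest log2 signals were 9.34, 9.92 and 10.46 in the controls and 10.64, 11.16 and 11.97 in the mutants. The lowest mutant thus lay above the highest control. The log2 change was 1.32 (SE 0.18, adjusted p = 1.5e-05), a 2.50-fold level, and the exact permutation test over all 92378 ways to divide the arrays gave p = 1.08e-05 (two-sided), the smallest that they can give. *Pex11g*, a second member of the same family of division factors, went the other way. It read 6.49, 6.76 and 6.86 in the controls and 5.74, 6.26 and 6.71 in the mutants, of which 7 lay below every control. It fell by 0.41 on the log2 scale (SE 0.13, adjusted p = 0.0378, exact permutation p = 0.00236), and this call was lost in 11 of 19 fits that left out 1 array (control replicate 2, 3, 4, 5 or 6, or mutant replicate 3, 4, 6, 8, 9 or 10; adjusted p up to 0.0729).

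The other peroxins that fell were *Pex2* and *Pex10*, subunits of the ubiquitin ligase in the peroxisomal membrane that tags import receptors for recycling. *Pex2* read 7.61, 8.14 and 8.52 in the controls and 7.04, 7.63 and 7.98 in the mutants. The genotypes overlapped, with 5 mutants below every control and 6 controls above every mutant. Its log2 change of -0.55 (SE 0.14, adjusted p = 0.00915, exact permutation p = 0.000974) is a 1.47-fold difference, and it passed without any 1 array. *Pex10* read 4.09, 4.78 and 5.13 in the controls and 3.89, 4.30 and 4.43 in the mutants, near the background of the arrays: it was detected in 8 of 9 controls and in 4 of 10 mutants. It fell by 0.40 (SE 0.12, adjusted p = 0.0389, exact permutation p = 0.00331). The call of *Pex10* was lost in 11 of 19 fits that left out 1 array (control replicate 2, 4, 5, 6, 7 or 8, or mutant replicate 1, 3, 4, 5 or 9; adjusted p up to 0.0811).

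The remaining 9 peroxins did not pass the test. *Pex5*, the receptor that carries most matrix enzymes to the peroxisome, came nearest. It read 9.07, 9.15 and 9.71 in the controls and 8.61, 8.89 and 9.22 in the mutants, and 8 mutants lay below every control. Its log2 change was -0.34 (SE 0.11, adjusted p = 0.0502, on the other side of the threshold under some alternatives). *Pex7*, the receptor for the smaller group of enzymes with an N-terminal signal, had a log2 change of 0.27 (95% confidence interval 0.05 to 0.49, adjusted p = 0.120). For the docking factors *Pex13* and *Pex14* the changes were -0.20 and -0.08, and for *Pex6* and *Pex26*, which help to pull the receptors back out of the membrane, 0.20 and -0.13. *Pex3*, *Pex16* and *Pex19*, which insert membrane proteins, had log2 changes of 0.16, -0.22 and -0.07. Adjusted p of these 7 genes ran from 0.352 for *Pex16* to 0.831 for *Pex19*, and the widest of their confidence intervals, that of *Pex26*, reached from -0.49 to 0.22.

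**Figure D2:**
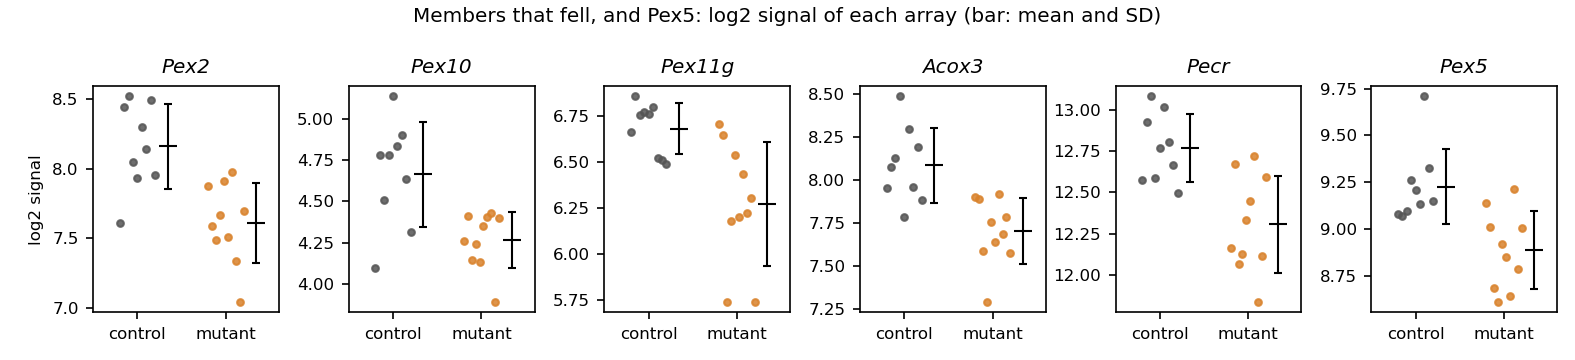
Log2 signal (y axis, a separate scale per panel) of each mouse for the 5 genes that fell and for *Pex5*, which did not pass, with controls in grey and mutants in orange. Bars beside the points give the mean and SD of 9 controls and 10 mutants. The genotypes overlap in all 6 panels.

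*Abcd2* changed most of the 34 genes. It encodes a membrane transporter that brings very long-chain acyl-CoA into the peroxisome. Its log2 signals were 6.16, 7.45 and 9.55 (lowest, median and highest) in the controls and 10.58, 11.70 and 12.16 in the mutants. Control replicates 1 and 5 stood above the rest at 9.52 and 9.55, while the next control read 8.12. The mutants were closer together, with an SD of 0.52 against 1.13 in the controls, and even the lowest lay above both high controls. *Abcd2* rose by 3.79 (SE 0.34, adjusted p = 1.6e-08, exact permutation p = 1.08e-05), a 13.8-fold level. *Abcd3*, the abundant peroxisomal transporter of bile acid precursors and dicarboxylic acids, spanned 15.43 to 16.21 in controls and 15.36 to 15.97 in mutants. Its log2 change was -0.22 (95% confidence interval -0.45 to 0.01, adjusted p = 0.25), so that a rise of the size seen for *Abcd2* lies far outside its interval.

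In the core of β-oxidation, 4 of 7 genes rose, all of them for steps after the first, and 1 fell, an acyl-CoA oxidase of the first step. *Acox2*, the oxidase for bile acid precursors and branched chains, read 12.59, 13.26 and 13.74 in the controls and 13.18, 13.34 and 13.59 in the mutants (log2 change 0.15, SE 0.13, adjusted p = 0.563). *Acox3*, an oxidase of branched chains, read 7.78, 8.08 and 8.49 in the controls and 7.29, 7.72 and 7.92 in the mutants. It fell by 0.38 (SE 0.11, adjusted p = 0.0261, exact permutation p = 0.000476), with 7 mutants below every control, and the call was lost when control replicate 4, control replicate 6 or mutant replicate 4 was left out (adjusted p up to 0.0602).

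The hydration and dehydrogenation that follow are carried out by bifunctional enzymes, and both of their genes rose. *Ehhadh*, the L-bifunctional enzyme of straight and dicarboxylic chains, read 14.23, 14.86 and 15.27 in the controls and 15.11, 15.79 and 16.73 in the mutants. The genotypes overlapped at their edges, where 3 mutants lay below the highest control, replicate 1. Its log2 change was 1.07 (SE 0.19, adjusted p = 4.9e-04, exact permutation p = 0.000152), a 2.10-fold level. *Hsd17b4*, the D-bifunctional enzyme of branched chains and bile acid precursors, read 14.07, 14.65 and 14.81 in the controls and 14.69, 15.07 and 15.32 in the mutants. All but 1 mutant lay above every control, and control replicate 3 lay well below the other controls. *Hsd17b4* rose by 0.45 (SE 0.11, adjusted p = 0.00880, exact permutation p = 0.000130), and the call held without any 1 array.

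The last step is cleavage by a thiolase. *Acaa1b*, the more inducible of the mouse 3-ketoacyl-CoA thiolases, read 10.79, 11.57 and 12.10 in the controls and 12.57, 12.94 and 14.08 in the mutants, with no overlap. It rose by 1.62 (SE 0.20, adjusted p = 2.6e-06, exact permutation p = 1.08e-05), a 3.08-fold level. *Acaa1a*, its close paralog, read 11.62, 12.21 and 12.80 in the controls and 12.77, 13.08 and 13.37 in the mutants, and 8 mutants exceeded every control. It rose by 0.83 (SE 0.13, adjusted p = 1.1e-04, exact permutation p = 3.25e-05). The paralogs are alike enough in sequence that their probes may share signal, so the values do not separate them with certainty. *Scp2*, whose longer product is the thiolase of branched chains and bile acid precursors, spanned 17.50 to 18.01 in controls and 16.99 to 18.04 in mutants (log2 change -0.18, SE 0.12, adjusted p = 0.407).

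**Figure D3:**
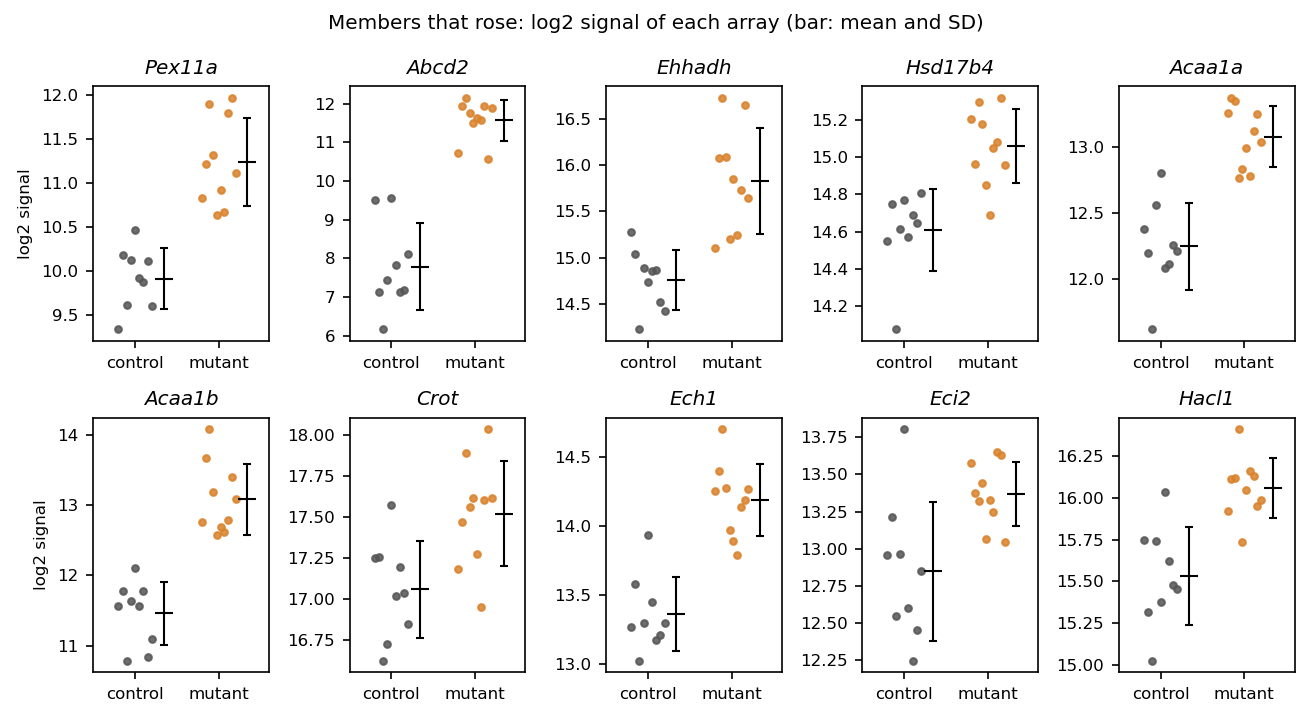
Log2 signal (y axis, a separate scale per panel) of each mouse for the 10 genes that rose, with controls in grey and mutants in orange, and the mean and SD of 9 controls and 10 mutants as bars. *Pex11a*, *Abcd2* and *Acaa1b* show no overlap between the genotypes, and for *Eci2* the highest of all mice is a control.

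Of the 34 genes, 14 are known as targets of PPARα in mouse liver, and most of the rises lay among them. In that group 9 rose (64.3%) and 1, *Pecr*, fell (7.14%), with a median log2 change of 0.49. Among all genes 4.73% rose and 5.33% fell. *Abcd3*, *Scp2*, *Decr2* and *Cat* of this group did not pass, though *Cat* lay at the top of the scale, where a rise would not have been measurable. Among the other 20 genes 1, *Hacl1*, rose and 4 fell (*Pex2*, *Pex10*, *Pex11g* and *Acox3*), with a median of -0.14. These are 5% and 20% of the 20 genes. The group was written down with earlier results of these data known, so its counts are a description.

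PPARα binds with its partner RXR to a direct repeat of AGGTCA with 1 base between the copies. The RefSeq promoter table (GRCm38.p6) gives each gene 1 window, from 250 bases before to 50 after a start, and holds 29 of the 34 genes and 8 of the 10 that rose. For 8 of the 29, *Acaa1a* and *Eci2* among those that rose, the window does not lie at the start of the gene as RefSeq annotates it (within 1 base). That repeat, searched on both strands, was found in 0 of the 29 and in 0.0481% of 27025 genes in all, and with any base at the 4th place of each copy in 0 of 29 and 0.451%. The absence of these letters from so short a window says nothing of sites farther away. The motif CCAAT, a common promoter element searched on both strands after the data were seen, was found in 6 of the 8 genes that rose, in 14 of all 29 and in 41.1% of all genes. Over windows at the annotated start alone, it was found in 4 of 6 genes that rose, in 9 of 21 of the peroxisomal genes and in 38.2% of 19876 genes. The 250 bases before the start are shown for *Pex11a*, *Ehhadh* and *Acaa1b*, which rose and whose levels are also set against each other across mice, 5′ to 3′ on the gene's own strand, with CCAAT or its reverse complement ATTGG in capitals.
Pex11a, chr7:79743132-79743381, minus strand: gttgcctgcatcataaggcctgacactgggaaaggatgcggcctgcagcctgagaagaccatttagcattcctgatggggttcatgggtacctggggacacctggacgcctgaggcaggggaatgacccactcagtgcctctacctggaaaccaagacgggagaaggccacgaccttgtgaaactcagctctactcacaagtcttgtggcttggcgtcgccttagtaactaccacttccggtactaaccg
Ehhadh, chr16:21787835-21788084, minus strand: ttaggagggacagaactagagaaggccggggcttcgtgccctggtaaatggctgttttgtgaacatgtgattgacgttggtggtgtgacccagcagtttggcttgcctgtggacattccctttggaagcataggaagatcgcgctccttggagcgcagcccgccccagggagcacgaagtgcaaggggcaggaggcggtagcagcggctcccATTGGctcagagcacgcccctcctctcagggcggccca
Acaa1b, chr9:119157094-119157343, minus strand: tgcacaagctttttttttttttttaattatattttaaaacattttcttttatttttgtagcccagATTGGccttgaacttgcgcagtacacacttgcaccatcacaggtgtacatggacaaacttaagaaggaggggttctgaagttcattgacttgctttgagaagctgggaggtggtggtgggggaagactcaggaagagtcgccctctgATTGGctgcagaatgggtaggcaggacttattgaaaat
*Ehhadh* and *Acaa1b* each hold ATTGG that begins at position -38, counted back from the gene's start, and *Acaa1b* holds a further copy nearer to the 5′ end. *Pex11a* holds neither form in these bases, and nor does *Ech1*, which rose as well.

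Enzymes around the core, which prepare unusual chains or export the products, moved in both directions. *Ech1* and *Eci2* are isomerases that shift double bonds of unsaturated chains into the place where β-oxidation can act. *Ech1* read 13.02, 13.29 and 13.94 in the controls and 13.79, 14.22 and 14.70 in the mutants, 8 of them above every control. It rose by 0.83 (SE 0.13, adjusted p = 6.8e-05, exact permutation p = 5.41e-05), a 1.78-fold level. *Eci2* read 12.25, 12.85 and 13.80 in the controls and 13.05, 13.35 and 13.65 in the mutants. Here no mutant exceeded control replicate 5, while 7 controls lay below every mutant. *Eci2* rose by 0.52 (SE 0.16, adjusted p = 0.0330, exact permutation p = 0.00647), a call lost in 8 of 19 fits that left out 1 array (controls 3, 6, 7 and 8 and mutants 1, 4, 8 and 9; adjusted p up to 0.0708). *Crot*, which turns shortened acyl-CoA into carnitine esters for export to mitochondria, read 16.62, 17.04 and 17.57 in the controls and 16.96, 17.59 and 18.04 in the mutants, 5 of them above every control. It rose by 0.46 (SE 0.14, adjusted p = 0.0362, exact permutation p = 0.00562), but the call was kept in only 8 of 19 fits that left out 1 array (control replicate 1, 2, 5 or 7, or mutant replicate 1, 2, 6 or 7; adjusted p up to 0.0776 in the others).

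*Pecr*, a peroxisomal reductase of 2-enoyl-CoA, was the gene of this group that fell. It read 12.50, 12.77 and 13.09 in the controls and 11.83, 12.25 and 12.72 in the mutants, and 7 mutants lay below every control. Its log2 change of -0.46 (SE 0.13, adjusted p = 0.0172, exact permutation p = 0.00155) passed without any 1 array. *Amacr*, the racemase that branched chains and bile acid precursors need before oxidation, had a log2 change of -0.37 (95% confidence interval -0.62 to -0.11, adjusted p = 0.0586), with 4 mutants below every control. *Decr2*, a reductase of polyunsaturated chains, had one of 0.19 (95% confidence interval -0.04 to 0.42, adjusted p = 0.346).

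In α-oxidation, which removes a single carbon from chains such as phytanic acid, 1 of 2 genes rose. *Hacl1*, the lyase that splits off formyl-CoA, read 15.03, 15.48 and 16.04 in the controls and 15.74, 16.08 and 16.41 in the mutants. It rose by 0.53 (SE 0.12, adjusted p = 0.00465, exact permutation p = 0.000206), with 6 mutants above every control, and the call held without any 1 array. *Phyh*, the hydroxylase of the step before it, spanned 16.40 to 16.97 in controls and 16.37 to 16.83 in mutants (log2 change -0.12, 95% confidence interval -0.32 to 0.09, adjusted p = 0.542).

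Genes of ether lipid synthesis did not pass the test. *Gnpat* and *Agps*, the peroxisomal enzymes that add the first acyl chain and exchange it for an alkyl chain, both had a log2 change of -0.14 (adjusted p = 0.498 and 0.583). *Far1*, which supplies the fatty alcohol, had one of 0.05 (adjusted p = 0.892) at a signal near background, where 7 of 9 controls and 10 of 10 mutants detected it. The confidence intervals of these 3 genes lay between -0.41 and 0.34. *Cat*, the catalase that breaks down hydrogen peroxide, spanned 19.90 to 19.92 in controls and 19.86 to 19.92 in mutants, at the top of the scale, whose highest value on any array was 19.93. So close to the top of the scale, a rise of *Cat* would not have been measurable.

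Mutant mice with much *Ehhadh* RNA also had much *Pex11a* and *Acaa1b* RNA. Over the 10 mutants, Pearson's r between *Ehhadh* and *Pex11a* was 0.85 (permutation p = 0.00318, adjusted p = 0.0197 over 12 relations) and Spearman's rho was 0.85 (permutation p = 0.0027, adjusted p = 0.0324). Without the 2 mice farthest from the median of *Ehhadh*, r was 0.65. For *Ehhadh* and *Acaa1b* r was 0.85 (permutation p = 0.00328, adjusted p = 0.0197) and rho was 0.82 (permutation p = 0.00564, adjusted p = 0.0338), and r without those 2 mice was 0.73. The relation with *Crot* rested on the same 2 mice, since its r of 0.75 (permutation p = 0.0108, adjusted p = 0.0433) became 0.44 without them and its rho of 0.52 had an adjusted p of 0.266 by permutation. *Acaa1a* (r = 0.49, permutation p = 0.147, adjusted p = 0.186; rho = 0.27, permutation p = 0.449, adjusted p = 0.490) did not pass. Of the genes outside the peroxisome, *Cyp4a10*, a microsomal fatty acid hydroxylase, passed by rho (0.78, permutation p = 0.0106, adjusted p = 0.0426) but not by r (0.66, permutation p = 0.0415, adjusted p = 0.0712), with an r of 0.76 without those 2 mice, and *Fgf21*, a secreted hormone, by neither (r = 0.69, permutation p = 0.0391, adjusted p = 0.0712; rho = 0.36, permutation p = 0.311, adjusted p = 0.417), with an r of -0.48 without those 2 mice. Within the 9 controls none of the 6 relations passed after adjustment: r ran from 0.01 for *Pex11a* (exact permutation p = 0.968; rho = 0.12, exact permutation p = 0.776) to 0.73 for *Fgf21* (exact permutation p = 0.0234, adjusted p = 0.0703; rho = 0.73, exact permutation p = 0.0311, adjusted p = 0.0934), which only 3 of the 9 controls detected above background. For *Acaa1b* in the controls r was 0.71 (exact permutation p = 0.0376, adjusted p = 0.0712) and rho was 0.58 (exact permutation p = 0.108, adjusted p = 0.259). Without the 2 controls farthest from the median of *Ehhadh*, r was 0.40 for *Acaa1b*, -0.68 for *Pex11a* and 0.92 for *Fgf21*. The difference between the genotypes in these relations was not tested.

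**Figure D4:**
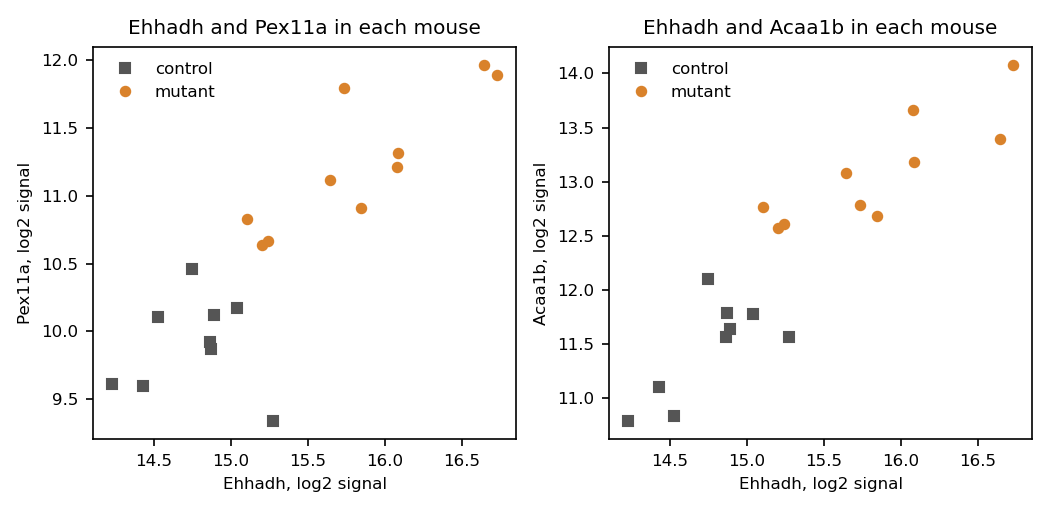
Log2 signal of *Pex11a* (left, y axis) and *Acaa1b* (right, y axis) against that of *Ehhadh* (x axis), 1 point per mouse, with 9 controls as grey squares and 10 mutants as orange circles. The mutants lie along a rising band, and mutant replicates 3 and 9 stand at its right end.

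The same mice stood at the ends of several of the genes that rose. Among the mutants, replicate 3 was highest for 4 of the 10 genes and replicate 9 for 3. Among the controls, replicate 3 was lowest for 8 of the 10 genes and replicate 5 highest for 7. Without control replicate 3, 8 of the 34 genes rose and 4 fell, and without control replicate 5, 10 rose and 3 fell.

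Other genes of the peroxisome moved in both directions. A further list of 50 genes, of which 41 were measured and analysed, held 6 that rose and 7 that fell, with a median log2 change of 0.02. These are 14.6% and 17.1% of the 41, against 4.73% and 5.33% of all genes. The 8 with the smallest adjusted p were the thioesterases *Acot3*, *Acot4* and *Acot12*, the carnitine acetyltransferase *Crat*, the fission GTPase *Dnm1l*, the CoA hydrolase *Nudt7*, the glyoxylate aminotransferase *Agxt* and the membrane protein *Mpv17l*. *Acot3*, which releases long-chain fatty acids from CoA in the peroxisome, spanned 4.48 to 7.59 in controls and 9.27 to 11.98 in mutants. It rose by 4.64 (SE 0.36, adjusted p = 1.4e-09), a 25.0-fold level, though 1 of 9 controls did not detect it, which leaves the size uncertain. *Acot4*, which prefers succinyl-CoA and dicarboxylic acyl-CoA, spanned 5.69 to 7.20 and 7.45 to 9.53 and rose by 2.00 (SE 0.23, adjusted p = 9.0e-07). Both thioesterases are close in sequence, so that a probe of one may also read the other, and all mutants lay above every control for both. *Crat*, shared between peroxisomes and mitochondria, rose by 1.74 (SE 0.28, adjusted p = 1.1e-04), and *Acot12*, which acts on acetyl-CoA and is usually placed in the cytosol, by 0.66 (SE 0.12, adjusted p = 4.2e-04).

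The other 4 of these 8 genes fell. *Nudt7*, which breaks down CoA in the peroxisome, spanned 14.98 to 16.57 in controls and 12.59 to 15.54 in mutants, 8 of them below every control. It fell by 1.90 (SE 0.31, adjusted p = 1.2e-04), a 3.74-fold difference. *Nudt19*, a further CoA hydrolase of that list, named here after its values were seen, rose by 0.36 (SE 0.10, adjusted p = 0.0281). *Dnm1l*, which cuts peroxisomes and mitochondria in division, spanned 11.85 to 12.40 and 11.16 to 11.79, with all 10 mutants below every control. Its log2 change was -0.68 (SE 0.11, adjusted p = 1.1e-04), opposite in sign to that of *Pex11a*. *Agxt*, which detoxifies glyoxylate, fell by 1.03 (SE 0.19, adjusted p = 5.1e-04), and *Mpv17l* had a log2 change of -1.19 (SE 0.25, adjusted p = 0.00232).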

How the data were processed

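Liver RNA of 9 control and 10 mutant male mice was measured on Mouse Clariom S arrays, 1 per mouse. The authors processed the scans to SST-RMA log2 values, normalized between arrays, and deposited them with p-values of detection above background, here taken as detected under 0.05. No further normalization was applied to the deposited log2 values. The arrays hold 22206 probe sets, of which 19572 name 1 gene and 2634 are unnamed in the annotation used here. For 55 genes with several probe sets the brightest was kept, which left 19505 genes. Genotypes were compared with limma 3.58.1 in R 4.3.3 (lmFit, eBayes, two-sided, Benjamini-Hochberg over all genes). For genes of the list past 0.05, the difference in means was also tested by exact permutation of the arrays (two-sided). Relations between genes used permutation tests within a genotype (Python 3.11.15, scipy 1.17.1). The procedure was tested on simulated data. The labels give no batch. The number of arrays limits the precision.

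The genes and lists were chosen with earlier results of these data known. All 34 genes were named by rule, with values by sample for those that passed, and the 8 smallest adjusted p of the further list. Alternatives were limma's trend and robust settings, the methods' t-test and Wilcoxon test, the other deposited table (log2 values, different by at most 0.0005), other scalings, filters on dim genes, array weights, the replicate number as a block, averaged probe sets, a 1.5-fold minimum and leaving out each array.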

Additional observations from a re-analysis of the deposited data

Results flagged for a closer look

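Of 86 groups of values (43 named genes in each genotype), 5 held a sample set apart from the rest of its group, where chance alone flags about 1 in 20. *Pex5* read 9.71 in control replicate 7, and the nearest other control read 9.33. *Pex13* read 9.00 in the same mouse, below the next value of 9.63. *Hsd17b4* read 14.07 in control replicate 3, and the next control read 14.55. *Cat* read 19.86 in mutant replicate 5 and 19.91 or more in the other mutants, a gap of little size at the top of the scale. *Mpv17l* read 6.73 in mutant replicate 9, below the next value of 7.76.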

How the results depend on the processing

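Of the 15 genes that passed, 10 kept their direction and passed under every alternative other than the minimum fold (*Pex2*, *Pex11a*, *Abcd2*, *Ehhadh*, *Hsd17b4*, *Acaa1a*, *Acaa1b*, *Ech1*, *Pecr* and *Hacl1*), and none of the 15 changed direction. *Crot*, *Eci2*, *Pex10*, *Pex11g* and *Acox3* lost the call under some, with adjusted p up to 0.114, 0.0887, 0.0838, 0.114 and 0.126. *Pex5* (0.0199 to 0.117) and *Amacr* (0.0192 to 0.120) passed as falls under some. With a minimum of 1.5-fold, 6 genes rose and 0 fell, as all 5 falls were smaller than that. With any 1 array left out, 8 to 10 genes rose and 2 to 7 fell. The 8 genes named from the further list kept their calls throughout. Equal replicate numbers in the 2 genotypes gave no sign of pairs. Over 9 such pairs, deviations from the genotype means correlated from -0.093 to 0.058, and 0 controls correlated best with the mutant of their number. A weak shared effect could be missed this way. With a replicate block, 8 genes rose and 2 fell, and 1 mutant has no partner in it. At the methods' threshold without adjustment, the t-test gave 11 rises and 8 falls among the 34 genes. Over all 19505 genes it gave 2013 rises and 2234 falls. After Benjamini-Hochberg adjustment the t-test gave 8 and 5 among the 34 genes, against 808 and 947 over all genes. The Wilcoxon rank sum test gave the same counts for the 34 genes. Median centring moved the median change of all genes to -0.03. Signals near background (*Pex10*, *Far1*) or at the top of the scale (*Cat*) limit what these arrays can show.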
